A study of Mus musculus with 4 samples.

Results

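The genes described here are 8 receptors and ligands of semaphorin signalling: the neuropilins Nrp1 and Nrp2, the plexins Plxnd1 and Plxnc1, and the semaphorins Sema4a, Sema4b, Sema4d and Sema7a. They belong to a family of 31 neuropilin, plexin and semaphorin genes with a named probe set, among 19938 genes in all. Of the 31 genes, 20 were above background on average over the arrays, and all 8 of those described here were above it on every array. Background was set from 1194 olfactory and vomeronasal receptor genes, at the 95th percentile of their means (log2 5.87), and 12591 genes exceeded it. Nrp2 was chosen for its rise without miR-142, so its genotype differences are given as a description.

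Expression was measured on 4 arrays of CD4+ CD8- thymocytes from C57BL/6n mice aged 8 weeks. The WT (miR-142+/+) cells came from 5 pooled mice, of which 3 were female and 2 male, and the miR-142-/- cells from 4, of which 1 was female and 3 male. After depletion of CD8+ cells, a less mature CD69+ Qa2- and a more mature CD69- Qa2+ population were sorted from each pool, with 1 array for each. No agent, transgene or Cre driver is named for either genotype, and the miR-142-/- Qa2- sample was placed by its title and sorting entry, since its description field says Qa2+ instead.

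Semaphorins are secreted or membrane-bound ligands that steer the migration and adhesion of axons, endothelial cells and leukocytes. Plexins are their main receptors and act on the cytoskeleton and on integrins. Neuropilins are co-receptors that present secreted semaphorins to plexins and bind vascular endothelial growth factors as well. In the thymus, plexin D1 and its ligand semaphorin 3E are known for their part in the movement of positively selected thymocytes from cortex to medulla, and neuropilin 1 is a surface marker of regulatory T cells that arise in the thymus.

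Mir142, the deleted microRNA gene, read log2 10.11 (Qa2-) and 9.41 (Qa2+) in WT, against 5.29 (Qa2-) and 4.88 (Qa2+) in miR-142-/-. Cd4 lay between 12.36 and 12.64 and Cd3e, a chain of the T cell receptor complex, between 12.75 and 12.92. In these CD8-depleted sorts Cd8b1 still read 9.97 (Qa2-) and 9.98 (Qa2+) in WT, against 9.24 (Qa2-) and 8.75 (Qa2+) in miR-142-/-. Its genotype differences were thus 1.66-fold and 2.34-fold, lower in miR-142-/-, whereas Cd8a lay between 7.25 and 7.53. Cd69 was lower on the Qa2+ arrays, 1.71-fold in WT and 1.95-fold in miR-142-/-. Of 7 double-positive (CD4+ CD8+) thymocyte markers above background, 5 were at least 1.5-fold higher on the Qa2+ array in WT and 4 in miR-142-/-. None was lower, and the shares of all genes were 2.69% and 2.65% higher and 3.69% and 3.64% lower. Rag1 read 5.92 (Qa2-) and 8.63 (Qa2+) in WT, against 6.11 and 8.02 in miR-142-/-. The part of such cells in the stage differences was not tested. Xist was log2 12.67 and 12.14 in WT and below background in miR-142-/-, and Eif2s3y, a Y-linked gene, was below background in WT and 10.55 and 10.58 in miR-142-/-, although both pools are labelled as holding both sexes. Genotype and these sex-linked transcripts cannot be told apart in the genotype differences below, whereas each stage difference was taken within 1 pool.

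The deleted gene gives 2 mature microRNAs, shown because their seeds (bases 2 to 8, in capitals) are what the miR-142-/- cells lack. Both are from RefSeq on GRCm38.p6, plus strand, at chr11:87756903-87756925 for the 3p arm and chr11:87756867-87756887 for the 5p arm.
mmu-miR-142a-3p: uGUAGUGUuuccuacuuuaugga
mmu-miR-142a-5p: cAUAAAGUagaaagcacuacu
The 2 seeds differ, so they pair with different target sites. Target sites in the transcripts of the 8 genes were not analysed here.

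The 250 bases before an annotated start of Nrp2 and of Sema4a are shown, because these 2 of the 8 genes were at least 1.5-fold apart between genotypes in both populations. They are RefSeq windows on GRCm38.p6, at chr1:62703067-62703316 on the plus strand for Nrp2 and at chr3:88461183-88461432 on the minus strand for Sema4a. Capitals mark matches on either strand to a GC box (GGGCGG) or a TCF/LEF motif (CTTTGAA or CTTTGAT).
Nrp2: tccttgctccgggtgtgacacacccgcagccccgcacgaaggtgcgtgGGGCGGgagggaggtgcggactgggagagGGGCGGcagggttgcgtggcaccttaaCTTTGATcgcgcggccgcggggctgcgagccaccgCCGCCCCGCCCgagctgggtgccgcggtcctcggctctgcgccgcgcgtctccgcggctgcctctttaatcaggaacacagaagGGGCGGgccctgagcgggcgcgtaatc
Sema4a: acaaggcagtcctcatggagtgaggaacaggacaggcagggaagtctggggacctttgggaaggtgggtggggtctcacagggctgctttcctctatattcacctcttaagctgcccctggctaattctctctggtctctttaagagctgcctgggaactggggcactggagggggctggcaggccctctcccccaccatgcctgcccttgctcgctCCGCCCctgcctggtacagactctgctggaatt
The Nrp2 window held 5 GC boxes, of which the adjoining pair shares a base, and 1 TCF/LEF match. The Sema4a window held 1 GC box and no TCF/LEF match, and is 1 of 4 start windows listed for this gene. Among 32851 windows of the same length, 32.7% held a GC box and 7.48% a TCF/LEF match. E-box, RUNX, KLF, AP-1 and NR4A motifs were searched as well and are not marked. Of these, the Nrp2 window held none and the Sema4a window 1 KLF match (CCACCC), which 28.1% of windows held. The motifs were chosen after the sequences were seen, and a match is only a match of letters.

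Loss of miR-142 went with a much higher level of one neuropilin and with lower levels of the semaphorins Sema4a and Sema4f in both populations. Nrp2, a co-receptor for semaphorin 3F and vascular endothelial growth factor C, read log2 6.58 in WT Qa2- and 6.58 in WT Qa2+ cells, against 9.67 in miR-142-/- Qa2- and 9.35 in miR-142-/- Qa2+ cells. It was not far above background on both WT arrays and well above it on both miR-142-/- arrays, 8.51-fold apart in Qa2- and 6.84-fold apart in Qa2+ cells. Between the stages, which were not used to choose it, Nrp2 differed by -0.01 in WT and -0.32 in miR-142-/-, an average of -0.17 ± 0.11 (log2 estimate ± SE from limma over 2 pairs, Benjamini-Hochberg adjusted p = 0.36).

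Each condition had 1 array, so genotype differences have no replicate error and no test. As a gauge of scatter at low signal, receptor genes had genotype differences with a standard deviation of 0.15 (Qa2- cells) or 0.18 (Qa2+ cells) and stage differences with one of 0.22 (WT) or 0.21 (miR-142-/-). For the stages, limma was fitted over 12591 genes to the mean difference of both genotypes, with genotype as a block because each pool gave both populations. Its 2 pairs are pools, and its errors rest mostly on the spread of all genes.

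Nrp1, the co-receptor for semaphorin 3A and vascular endothelial growth factor A, did not follow Nrp2. Its level was log2 7.47 in WT Qa2-, 8.69 in WT Qa2+, 7.68 in miR-142-/- Qa2- and 7.83 in miR-142-/- Qa2+ cells. The WT Qa2+ array stood apart from the other 3, which lay within 0.36 of each other. Qa2+ cells were 2.33-fold above Qa2- cells in WT and 1.11-fold above in miR-142-/-, and its genotype differences (miR-142-/- minus WT) were 0.22 at the Qa2- and -0.86 at the Qa2+ stage.

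The average stage difference of Nrp1 was 0.68 ± 0.21 (limma, 2 pairs, Benjamini-Hochberg adjusted p = 0.075). After centring or quantile normalization of the arrays, or with background at the 99th percentile of receptor genes, its adjusted p was 0.026, 0.034 and 0.042 in limma, and with the robust prior or without genotype as a block it was 0.27 and 0.48, so the call depends on the setting. The change of its stage difference with genotype was -1.07 (miR-142-/- minus WT) and has no test.

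Regulatory and innate-like T cells also carry neuropilin 1. Some of their markers had their highest value on the WT Qa2+ array, as Nrp1 did, and others did not. Below, paired log2 values and sums stand in the order Qa2-, Qa2+. Foxp3, the defining transcription factor of regulatory T cells, read 8.21 (Qa2-) and 10.36 (Qa2+) in WT, against 7.01 (Qa2-) and 8.69 (Qa2+) in miR-142-/-. Lrrc32, a surface protein of activated regulatory T cells, read 7.87 and 9.32 in WT and 7.70 and 8.03 without miR-142. The summed linear level of all 10 regulatory T cell markers was 10176 and 11497 in WT and 11716 and 10074 without miR-142, and every one of them was above background on all arrays. Most of each of these sums came from Tnfrsf18, Tnfrsf4, Ikzf2, Il2ra and Gpr83, and not from Foxp3. Of these 10 genes, 4 were at least 1.5-fold higher on the Qa2+ array and none lower in WT, against 2.69% and 3.69% of all genes, whereas the miR-142-/- pool had 2 higher and 3 lower ones, beside 2.65% and 3.64%. In Qa2+ cells 1 was higher and 5 were lower without miR-142, against 4.56% and 4.88%.

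Foxp3 thus rose with maturation in both pools, by 1.91 ± 0.13 (limma, 2 pairs, Benjamini-Hochberg adjusted p = 0.00046), while Nrp1 differed by 0.15 in miR-142-/-. At the adjusted limma threshold, 5 of the 10 markers rose and 1 fell, against 4.77% and 8.35% of all genes. The stage differences of Il2ra were 0.73 (WT) and 0.66 (miR-142-/-), those of Ctla4 0.60 and 0.56, of Itgae 0.45 and 0.29 and of Capg 0.40 and 0.36. Ctla4 read 8.69 and 9.29 in WT and 6.07 and 6.64 without miR-142. Other markers of the list went the other way: the stage differences of Ikzf2, a transcription factor of regulatory T cells, were -0.53 (WT) and -0.67 (miR-142-/-), those of Tnfrsf4 -0.14 and -1.07 and those of Tnfrsf18 -0.20 and -0.65. Gpr83 was 1.27 higher without miR-142 in Qa2+ cells.

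Zbtb16, the transcription factor of innate-like T cells, was 7.55 and 8.71 in WT and 6.87 and 6.99 without miR-142, whereas the summed level of the 9 innate-like markers was 4820 and 3461 in WT and 1559 and 1637 without miR-142. Klrb1c, a receptor that defines part of these cells, was above background only in WT Qa2- cells. The summed level of 9 macrophage markers was 599 and 888 in WT and 600 and 626 without miR-142, with 2 and 5 of them above the background value in WT and 3 and 3 without miR-142. Lyz2, which encodes lysozyme, read 5.87 and 7.48 in WT and 5.98 and 6.67 without miR-142, and the complement gene C1qb 6.26 and 6.99 in WT and 6.17 and 6.40 without miR-142. Both of these and C1qc and Cd68 were highest on the WT Qa2+ array, as was Nrp1, while Adgre1 and Csf1r were below background on all arrays. The part of these cells in the Nrp1 result was not tested. In these sorted populations, fewer cells of a type and less RNA per cell cannot be told apart.

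Lists of markers of other cells that could carry neuropilin 2 held genes above and below background. The endothelial genes Kdr, Tek and Emcn were below background on all arrays, as were the dendritic cell genes Xcr1 and Clec9a. The summed level of the 9 endothelial markers was 2103 and 2371 in WT and 2150 and 2863 without miR-142. Of these 9, 4 were above the background value on each WT array and 5 on each miR-142-/- array. Pecam1, which read 10.67 and 10.89 in WT and 10.71 and 11.25 without miR-142, made up most of each endothelial sum. Egfl7 of the same list differed by 0.01 in Qa2- and -0.76 in Qa2+ cells (miR-142-/- minus WT). Siglech, which marks plasmacytoid dendritic cells, lay between 5.84 and 6.17. Of the 12 dendritic cell markers, 8 were above the background value on the miR-142-/- Qa2- array and 7 on each of the others, with summed levels of 7919 and 2969 in WT and 8630 and 6622 without miR-142. Most of each of these sums came from Ccr9, a chemokine receptor that thymocytes carry as well. Ccr9 read 12.68 and 10.77 in WT and 12.73 and 12.35 without miR-142. Tcf4, a transcription factor of that list, read 8.30 and 7.44 in WT and 9.65 and 9.04 without miR-142. Mef2c, from a list of innate lymphoid and progenitor markers, read 6.79 and 5.99 in WT and 9.19 and 8.18 without miR-142. The 9 measured genes of that list summed to 8397 and 4972 in WT and 9704 and 7235 without miR-142, with 6 or 7 above the background value. Most of each of these sums came from Id2 (12.38 and 11.47 in WT, 12.53 and 12.29 without miR-142) and Gata3 (11.04 and 10.41, 11.24 and 10.12). The part of such cells in the Nrp2 result was not tested.

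**Figure D1:**
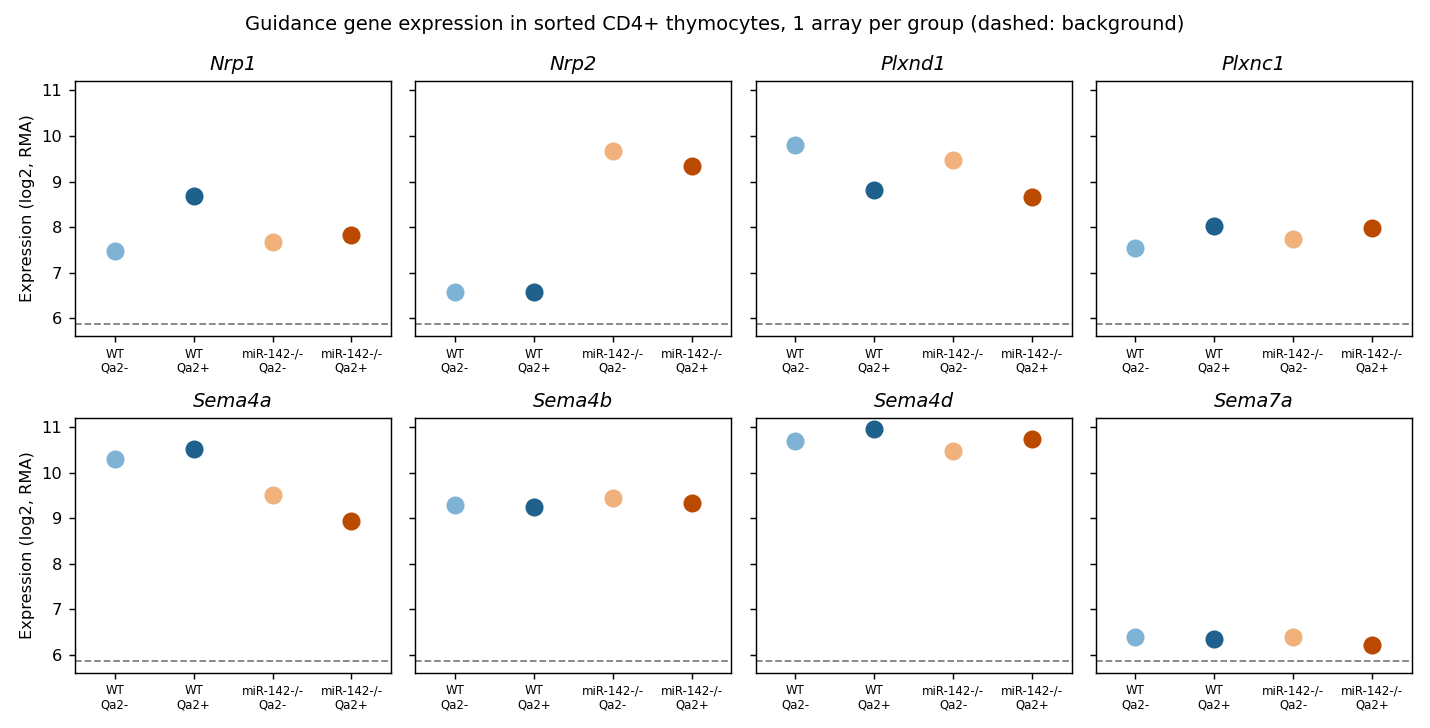
Expression of each of the 8 genes (vertical axis, log2 RMA value) on the WT and miR-142-/- arrays of Qa2- and Qa2+ cells, 1 point per array, with background at 5.87 as a dashed line. Nrp2 is near 6.58 in WT and above 9 in miR-142-/-, Nrp1 is highest in WT Qa2+ cells at 8.69, Plxnd1 is lower in Qa2+ cells of both genotypes, and Sema4a is lower in miR-142-/-.

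Among the plexins, Plxnd1 fell with maturation. This receptor of semaphorin 3E read log2 9.81 in WT Qa2-, 8.81 in WT Qa2+, 9.47 in miR-142-/- Qa2- and 8.66 in miR-142-/- Qa2+ cells. Both Qa2+ arrays lay below both Qa2- arrays, a 1.99-fold difference within the WT pool and a 1.76-fold one within the other. The average change was -0.90 ± 0.10 (limma, 2 pairs, Benjamini-Hochberg adjusted p = 0.0023). Without genotype as a block the adjusted p of Plxnd1 was 0.32 in limma. Genotypes differed less, by -0.33 in Qa2- and -0.15 in Qa2+ cells, and the change of the stage difference with genotype was 0.18.

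Plxnc1, the plexin that binds semaphorin 7A, read log2 7.54 in WT Qa2-, 8.02 in WT Qa2+, 7.73 in miR-142-/- Qa2- and 7.99 in miR-142-/- Qa2+ cells. Both Qa2+ arrays were above both Qa2- arrays. The average stage difference was 0.37 ± 0.11 (limma, 2 pairs, Benjamini-Hochberg adjusted p = 0.054). The adjusted p of Plxnc1 in limma was 0.020 after centring, 0.025 after quantile normalization, 0.046 with no background filter and 0.038 with background at the 99th percentile. In limma it was 0.055 with the mean of probe sets, 0.055 with the robust prior, 0.067 with a trended prior and 0.37 without genotype as a block. This call thus also depends on the setting. Genotypes differed by 0.19 and -0.03.

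Of the 9 plexins, 5 were above background. Plxnb1, the receptor of semaphorin 4D, read 7.99 in WT Qa2-, 7.47 in WT Qa2+, 8.24 in miR-142-/- Qa2- and 7.71 in miR-142-/- Qa2+ cells, and fell with maturation by 0.52 ± 0.10 (limma, Benjamini-Hochberg adjusted p = 0.014). Plxna1, a receptor used with neuropilins, was 0.47 higher in miR-142-/- Qa2- and 0.64 higher in miR-142-/- Qa2+ cells, the latter 1.5-fold or more as deposited but not after centring or quantile normalization. Plxna3 lay between 7.02 and 7.06. The means of Plxna2, Plxna4, Plxnb2 and Plxnb3 were below background.

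Among the semaphorins, Sema4a was lower without miR-142. Semaphorin 4A is a membrane ligand of dendritic and T cells that takes part in T cell priming. Its level was log2 10.31 in WT Qa2-, 10.52 in WT Qa2+, 9.50 in miR-142-/- Qa2- and 8.94 in miR-142-/- Qa2+ cells. Both miR-142-/- arrays lay below both WT arrays, 1.75-fold in Qa2- and 2.99-fold in Qa2+ cells. The stage difference was 0.21 in WT and -0.57 in miR-142-/-, with an average of -0.18 ± 0.17 (limma, 2 pairs, Benjamini-Hochberg adjusted p = 0.51).

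Sema4d, known as CD100 and carried by most T cells, read log2 10.69 in WT Qa2-, 10.95 in WT Qa2+, 10.48 in miR-142-/- Qa2- and 10.73 in miR-142-/- Qa2+ cells. Qa2+ cells were above Qa2- cells by 0.25 in each genotype, an average of 0.25 ± 0.10 (limma, 2 pairs, Benjamini-Hochberg adjusted p = 0.13), and genotypes differed by -0.21 and -0.22. Its 2 probe sets disagreed in size. The dimmer one read 7.59 and 8.24 in WT and 7.55 and 8.49 without miR-142, stage differences of 0.65 and 0.94, and its genotype differences were -0.04 and 0.25. With the mean of both, the stage difference of Sema4d was 0.53 with an adjusted p of 0.016 in limma.

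Sema4b and Sema7a differed little on these arrays. Sema4b, a transmembrane relative of Sema4d, lay between 9.25 and 9.44, with an average stage difference of -0.07 ± 0.10 (limma, 2 pairs, Benjamini-Hochberg adjusted p = 0.68). Sema7a, a membrane-anchored ligand of plexin C1 and of integrin alpha 1 beta 1, lay between 6.22 and 6.39, not far above background. Its average stage difference was -0.10 ± 0.10 (limma, 2 pairs, Benjamini-Hochberg adjusted p = 0.56). Genotype differences were 0.16 and 0.08 for Sema4b and 0.00 and -0.14 for Sema7a.

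The other membrane semaphorins held 1 gene that differed in both comparisons. Sema4f, a transmembrane semaphorin, read 7.56 in WT Qa2-, 8.06 in WT Qa2+, 6.81 in miR-142-/- Qa2- and 7.33 in miR-142-/- Qa2+ cells. It was lower in miR-142-/-, by -0.75 in Qa2- and -0.73 in Qa2+ cells, and rose with maturation by 0.51 ± 0.10 (limma, Benjamini-Hochberg adjusted p = 0.015). Sema4c lay between 5.87 and 6.27, with an average stage difference of 0.32 ± 0.10 (limma, Benjamini-Hochberg adjusted p = 0.077), and Sema4g between 6.0 and 6.46. Sema5b, Sema6b and Sema6c lay between 6.06 and 6.55 over all arrays, with genotype differences between -0.11 and 0.27. Sema5a, Sema6a and Sema6d were below background. The secreted class 3 semaphorins, the ligands of neuropilins, were dim. Of these 7 genes, 3 were above background (Sema3b, Sema3f and Sema3g), with genotype differences between -0.27 and 0.22. The level of Sema3e, the ligand of plexin D1, was between 4.98 and 5.18, below background.

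Over the whole family of 20 genes above background, the Qa2- cells of miR-142-/- had 1 higher gene (Nrp2) and 2 lower ones (Sema4a and Sema4f) at 1.5-fold or more, against 3.11% and 3.74% of all genes (6.85% in either direction). Nrp2 and other genes of the 8 were chosen with these values known, so nothing is read from these counts. In Qa2+ cells 2 were higher (Nrp2 and Plxna1) and 3 lower (Nrp1, Sema4a and Sema4f), against 4.56% and 4.88% of all genes. Past that limit in both populations were Nrp2 on the higher side, against 2.14% of all genes, and Sema4a and Sema4f on the lower side, against 2.76%. The family medians were 0.08 in Qa2- and 0.02 in Qa2+ cells, and the medians of all genes 0.00 and 0.00.

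**Figure D2:**
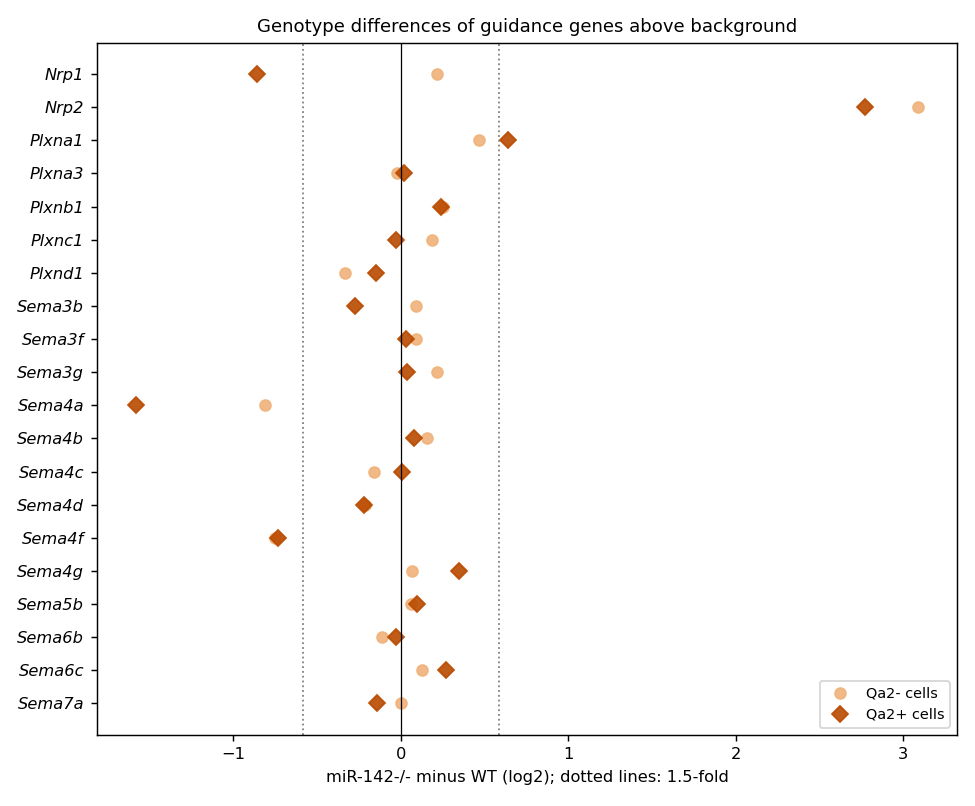
Difference between miR-142-/- and WT (horizontal axis, log2) for the 20 neuropilin, plexin and semaphorin genes above background, with circles for Qa2- and diamonds for Qa2+ cells and dotted lines at 1.5-fold. Nrp2 lies at 3.09 and 2.77, Sema4a at -0.81 and -1.58 and Sema4f at -0.75 and -0.73, while Nrp1 lies on both sides of 0 at 0.22 and -0.86.

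Between the stages in WT, Nrp1 was the 1 gene of the 20 past 1.5-fold on the higher side in Qa2+ cells and Plxnd1 the 1 on the lower side, against 2.69% and 3.69% of all genes. In miR-142-/- none was higher and 1 was lower (Plxnd1), against 2.65% and 3.64% (6.29% in either direction). Plxnd1 was thus lower in both genotypes, against 1.79% of all genes, and none was higher in both, against 1.29%. With limma and Benjamini-Hochberg adjustment over all genes, 1 of the 20 was higher (Sema4f) and 2 lower in Qa2+ cells (Plxnb1 and Plxnd1), against 4.77% and 8.35% of all genes (13.1% in either direction). After centring or quantile normalization the split was 4 higher and 2 lower under each, with Nrp1, Plxnc1 and Sema4c added on the higher side. The share of higher genes among all limma calls was 36.3% on the deposited values, 59.9% once arrays were centred and 56.1% once they were quantile normalized. The family median was 0.02 in WT and -0.05 in miR-142-/-, beside -0.06 and -0.06 for all genes. The difference of stage differences was at least 1.5-fold for 2 genes, Nrp1 (-1.07) and Sema4a (-0.77), both lower, against 1.6% of all genes lower, 1.82% higher and 3.42% in either direction.

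**Figure D3:**
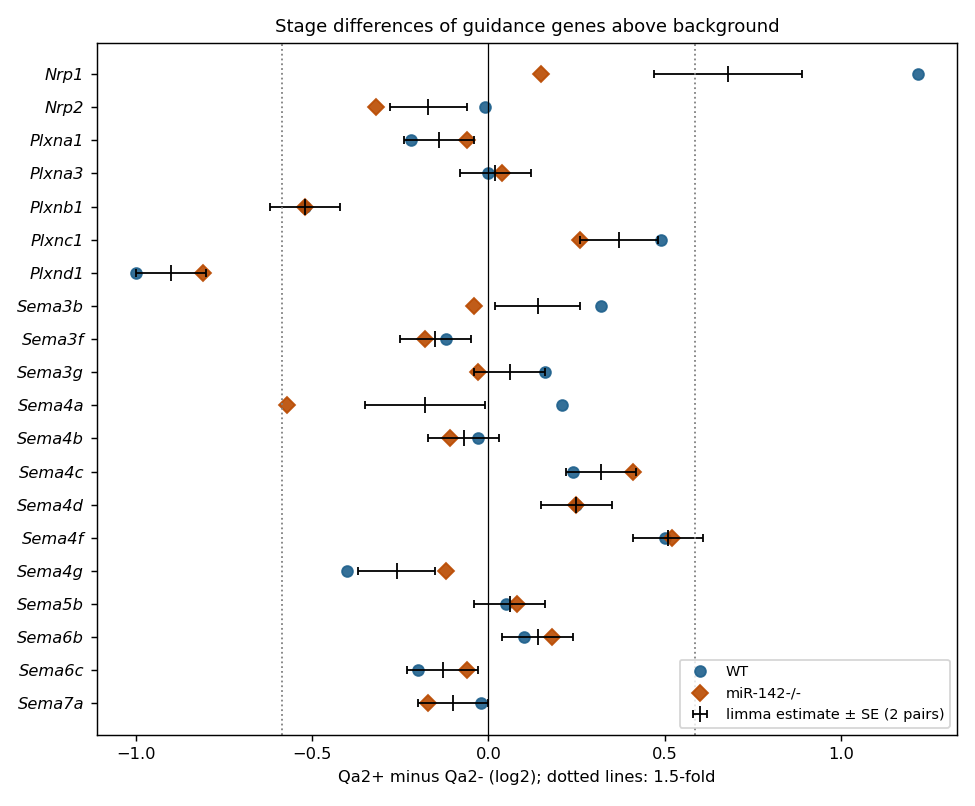
Difference between Qa2+ and Qa2- cells (horizontal axis, log2) for the same 20 genes, with circles for WT, diamonds for miR-142-/-, black ticks and bars for the limma estimate ± SE over 2 pairs, and dotted lines at 1.5-fold. Plxnd1 lies at -1.0 and -0.81 and Sema4f at 0.50 and 0.52, so the genotypes are close, whereas Nrp1 lies at 1.22 in WT and 0.15 in miR-142-/-.

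The co-receptors and other ligands of neuropilins and plexins were taken as a list of 22 genes, of which 12 were above background. In each population 1 of them was higher and 1 was lower without miR-142 by 1.5-fold or more, against 3.11% and 3.74% of all genes in Qa2- and 4.56% and 4.88% in Qa2+ cells. The higher gene was Vegfa, which encodes a ligand of neuropilin 1, at log2 7.31 (Qa2-) and 6.95 (Qa2+) in WT and 8.25 (Qa2-) and 8.53 (Qa2+) in miR-142-/-, differences of 0.94 and 1.58. The lower gene was Cd72, which encodes a receptor of semaphorin 4D in immune cells, at 7.84 and 8.56 in WT and 7.07 and 7.34 without miR-142, differences of -0.77 and -1.21. The list medians were 0.00 and 0.02. Itga1, which encodes the alpha 1 chain of the semaphorin 7A receptor integrin, averaged below background but read 6.96 in WT Qa2- cells, against 5.00 to 5.08 on the other arrays.

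Between the stages, 4 of these 12 genes rose and 1 fell in limma, against 4.77% and 8.35% of all genes. L1cam, an adhesion molecule that associates with neuropilin 1, rose by 0.76 ± 0.11 (limma, Benjamini-Hochberg adjusted p = 0.0046) and the integrin gene Itga4 by 0.82 ± 0.11 (adjusted p = 0.0041). Tgfbr2 and Cd72 rose by 0.38 and 0.49, and Itgb1, the partner chain of many integrins, fell by 0.46. The list median was -0.01, beside -0.06 over all genes.

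Of 35 plexin signalling genes, 29 were above background, 2 were not measured by a probe set of their own and 4 were below background. Past 1.5-fold, 2 were higher and 2 lower without miR-142 in Qa2- cells, and 2 were higher and 3 lower in Qa2+ cells. Those 3 include Crmp1, which passed the background filter only through its WT Qa2+ array, so its place in the count is not independent of the filter. In either direction, 6.85% of all genes passed that limit in Qa2- and 9.44% in Qa2+ cells. Arhgef12, an exchange factor that binds plexin B, read 7.06 and 7.26 in WT and 8.31 and 8.61 without miR-142, differences of 1.25 and 1.35. Dpysl2, a cytoskeletal mediator of semaphorin signals, read 10.86 and 10.48 in WT and 10.13 and 9.54 without miR-142, differences of -0.73 and -0.94. Tiam1, a Rac exchange factor, differed by -0.80 and -0.74.

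Farp1 was 0.65 higher in Qa2- cells and 0.20 in Qa2+ cells, and Rasa1, a Ras GTPase-activating protein, 0.47 and 0.65. Crmp1 read 6.7 in WT Qa2+ cells and was below background on the other arrays. The list medians were 0.07 and -0.02. Between the stages Rras, a Ras family GTPase on which plexins act, rose by 0.63 ± 0.10 (limma, Benjamini-Hochberg adjusted p = 0.0090), and 3 of the 29 genes fell in limma, Tiam1 by 0.56, Rnd1 by 0.50 and Dpysl2 by 0.49, against 4.77% higher and 8.35% lower among all genes. Rnd1 was above background on 3 of the 4 arrays.

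**Figure D4:**
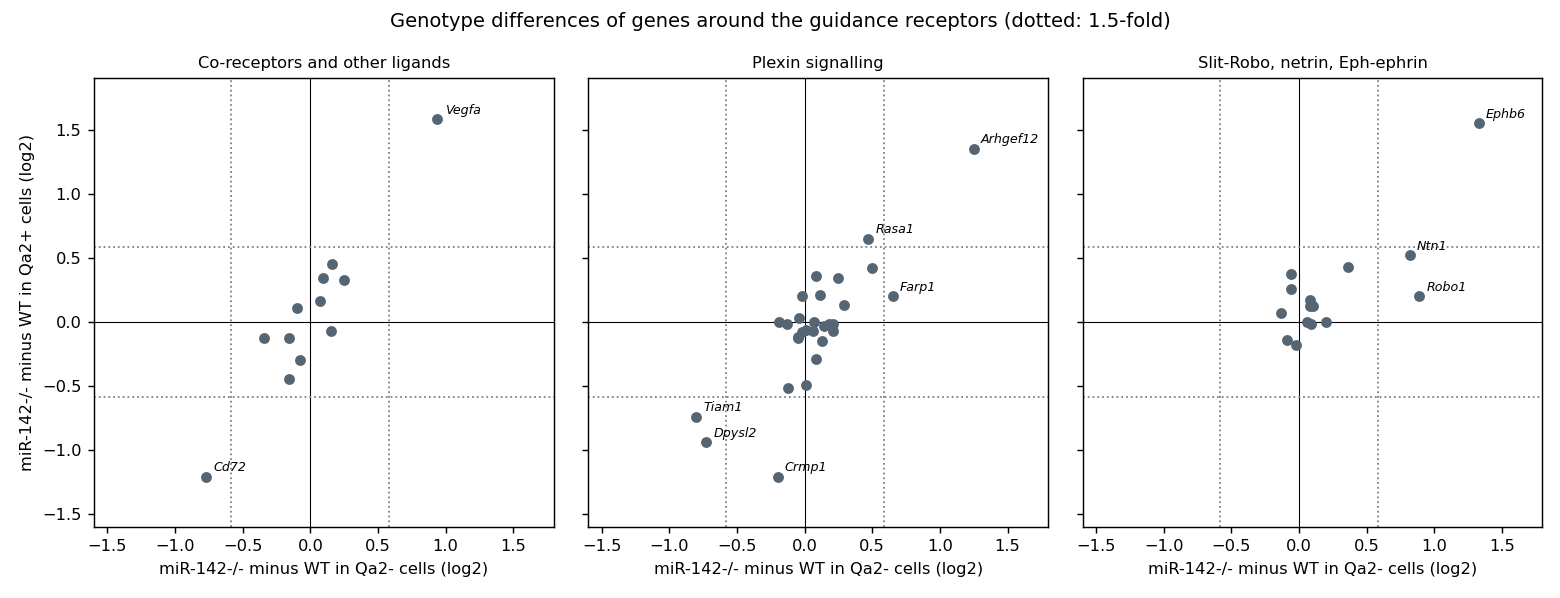
Difference between miR-142-/- and WT in Qa2- cells (horizontal axis, log2) against that in Qa2+ cells (vertical axis, log2), 1 point per gene above background in each of 3 lists, with dotted lines at 1.5-fold and names for genes past them in either population. Vegfa, Arhgef12 and Ephb6 are higher in both populations and Cd72, Tiam1 and Dpysl2 lower in both.

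The genes whose profiles over the 4 arrays were most like those of Nrp1, Nrp2, Plxnd1 and Sema4a, the members with a range of at least 1 log2 unit, were found among 11963 genes. Likeness was the root mean square distance between profiles with the mean of each gene removed, and with 4 arrays it is a description. Closest to Nrp2 were Tmem176a (distance 0.09), Tmem176b (0.16) and Klf12 (0.17), with genotype differences of 3.04, 2.90 and 3.05 at the Qa2- stage and of 3.02, 3.15 and 3.19 at the Qa2+ stage. Closest to Sema4a were Pask (0.04), Chaf1a (0.05) and Ctse (0.07). Closest to Plxnd1 were Ldhb (0.05), Aldh7a1 (0.05) and Mfsd2a (0.06), with stage differences of -0.96, -0.98 and -0.95 in WT cells and of -0.94, -0.82 and -0.96 without miR-142. Closest to Nrp1 were Emc9 (0.11), Klhl5 (0.14) and Apobec2 (0.14).

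**Figure D5:**
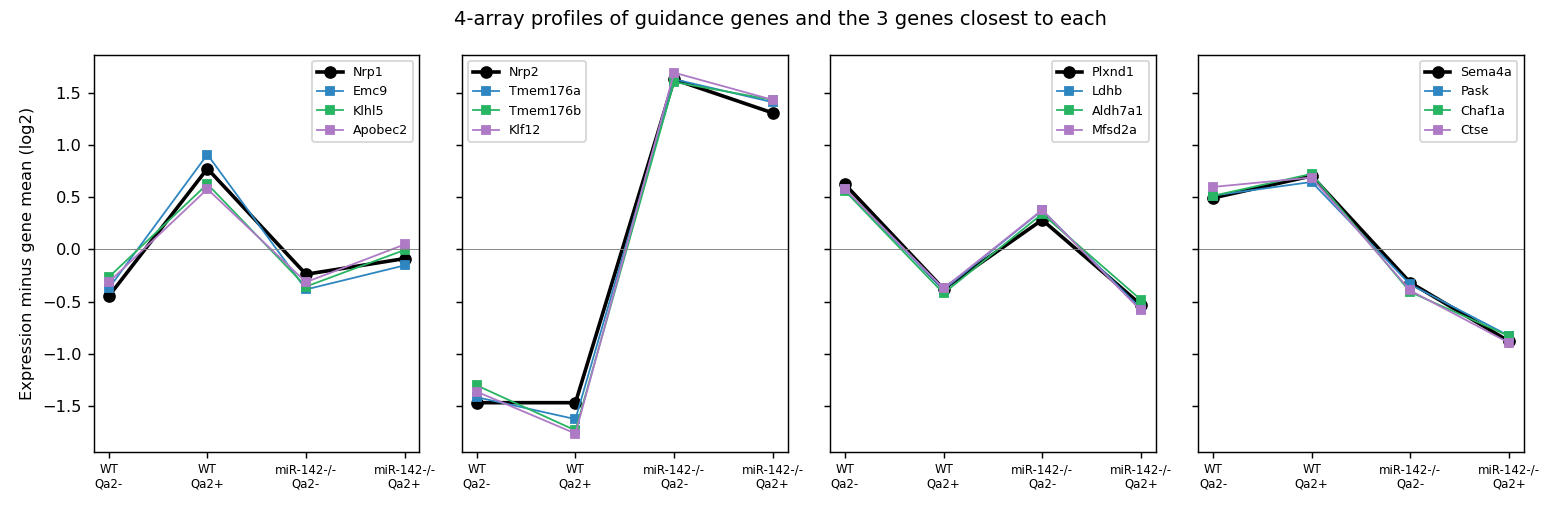
Expression minus the mean of each gene (vertical axis, log2) on the WT and miR-142-/- arrays of Qa2- and Qa2+ cells for Nrp1, Nrp2, Plxnd1 and Sema4a (black) and the 3 genes closest to each (coloured). Lines join arrays only to guide the eye, and the largest distance shown is 0.17, that of Klf12 to Nrp2.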

How the data were processed

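RNA of 4 sorted populations was hybridised to Affymetrix Mouse Gene ST arrays. The authors deposited log2 expression values per probe set, made with RMA and Partek per the submitters' processing notes. Neither version is given in the sources used here. RMA is built to equalise the distributions of the arrays and compresses differences of dim probe sets. Of 35557 probe sets, 21789 had 1 listed gene, 1621 several and 12147 none, and each gene was read from the brightest of its single-gene probe sets on average. The deposited arrays were not fully equal, with medians of 6.71 (Qa2-) and 6.61 (Qa2+) in WT and 6.74 (Qa2-) and 6.67 (Qa2+) in miR-142-/-. Precision is limited by how many arrays there are. Stage differences were fitted with limma 3.58.1 in R 4.3.3, taking genotype as a block, 1 residual and 6.94 prior degrees of freedom, two-sided, threshold 0.05. The code was run on simulated data drawn from the fitted prior, with no offset between whole arrays. That run cannot show whether the p-values hold for the real arrays. The block comes from the labels' design, in which each pool of thymi gave both populations. With nothing but pools sampled, the p-values do not measure the spread between mice. They rest mostly on the spread of all genes, since 2 pairs leave 1 residual degree of freedom. The 8 genes, the lists and the rules for named genes were chosen with earlier results of these data known. Named genes were the 8, their relatives above background, list members at least 1.5-fold apart in both populations or both genotypes or past the limma threshold with 1.5-fold, the 3 nearest profiles of members with a range of at least 1, and genes that mark labels or cell types. Itga1, Farp1, Rasa1, Crmp1, Tgfbr2, Cd72 between stages, Itgb1, Rnd1, Dpysl2 and Tiam1 between stages and the genes of other guidance families were named after their values were seen. The alternatives were array centring, quantile normalization, other background values, the mean of probe sets, a 2-fold limit, limma without the block and other limma priors.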

Additional observations from a re-analysis of the deposited data

Results flagged for a closer look

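Some of the 8 genes differed in opposite directions in the groups of 1 contrast. The difference between the groups was not tested, since each group has 1 array. Nrp1 was higher in miR-142-/- than in WT Qa2- cells by 0.22 and differed by -0.86 in Qa2+ cells. Both were beyond the scatter of receptor genes (1 standard deviation, 0.15 and 0.18), which gauges low signal and is no test, and 0.22 was only a little beyond it. Sema4a differed between Qa2+ and Qa2- cells by 0.21 in WT and -0.57 in miR-142-/-, the former within that scatter. The genotype differences of Plxnc1 were 0.19 (Qa2-) and -0.03 (Qa2+) and those of Sema7a 0.00 and -0.14, and in each pair at least 1 value lay within that scatter.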

How the results depend on the processing

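Values here are counts among the neuropilin, plexin and semaphorin genes above background. At 2-fold rather than 1.5-fold, 1 gene rather than 3 differed between genotypes in Qa2- cells and 2 rather than 5 in Qa2+ cells, and 1 rather than 2 differed between stages in WT, 0 rather than 1 in miR-142-/- and 1 rather than 2 in the difference of stage differences. Centring and quantile normalization each gave 4 rather than 2 genes between stages in WT and 2 rather than 1 in miR-142-/-, and the mean of probe sets also gave 2 there. In limma, 3 genes passed as deposited, 6 after centring, 6 after quantile normalization, 5 with no background filter and 5 with background at the 99th percentile. With no replicate block, 0 of the 20 genes passed limma's adjusted threshold, with 4 at an unadjusted p under 0.05. Of all genes 0 passed there, with 1544 unadjusted. By construction, centring shifts the stage differences of all genes alike within a genotype, and without the block genotype differences enter the error. The cause of the other shifts was not tested, apart from the changed limit or number of genes. Sema4b turned from -0.07 to 0.02 after centring, with no call in either. Among the 8 genes, 118 of 120 recomputed differences moved by less than the scatter of receptor genes, and the other 2 were those of Sema4d with the mean of its probe sets. Much of this count was fixed in advance. Members with 1 probe set could not move under the mean of probe sets, and centring shifts every gene by the same small amount. Of 63 limma values of the 8 genes, 53 kept their direction and call, and 8 became calls and 1, that of Plxnd1 with no replicate block, was lost. Signal limits Sema7a and Nrp2 in WT, which lay close to background.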

Other observations

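Of 38 genes of the Slit-Robo, netrin and Eph-ephrin families, 15 were above background, and 3 were at least 1.5-fold higher in miR-142-/- Qa2- and 1 in miR-142-/- Qa2+ cells, with none lower, against 3.11% and 4.56% of all genes higher and 3.74% and 4.88% lower. Ephb6, an Eph receptor of T cells without kinase activity, read log2 9.49 (Qa2-) and 9.11 (Qa2+) in WT, against 10.82 (Qa2-) and 10.67 (Qa2+) in miR-142-/-. Ntn1, a netrin, was 0.82 and 0.52 higher in miR-142-/-, and Robo1, a Slit receptor, 0.89 higher in Qa2- cells, while in Qa2+ cells it was below background. The medians over the 15 genes were 0.08 and 0.12.

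Between the stages 1 of these 15 genes rose and 2 fell in limma, against 4.77% and 8.35% of all genes. Efna4, an ephrin ligand anchored in the membrane, read 8.44 (Qa2-) and 7.46 (Qa2+) in WT, against 8.79 (Qa2-) and 7.89 (Qa2+) in miR-142-/-, and fell by 0.94 ± 0.10 (limma, 2 pairs, Benjamini-Hochberg adjusted p = 0.0018). Robo1 also fell (limma, adjusted p = 0.0031), and its fitted difference of -1.26 is only a lower bound on the size, since it was below background on both Qa2+ arrays. Its mean passed the background filter only through the Qa2- arrays, where it is higher, so the call is not independent of that filter. Ntn4 rose by 0.37 ± 0.10 (limma, adjusted p = 0.047).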
